A study of Homo sapiens with 2 samples.

Results

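The splicing factors and spliceosome proteins described here are the genes whose name in the array's own annotation begins with SFRS or SRSF and a digit, SF3A or SF3B and a digit, SNRP, HNRP or HNRNP, PRPF and a digit, or U2AF. The rule uses names only and no measured value. It took 200 of the 45033 features of the array (a feature is a set of 3 probes for 1 transcript), and these belong to 82 of 23595 genes. Of the 82 genes, 25 were hnRNP proteins, 16 SR and SR-related proteins, 14 snRNP proteins, 13 PRPF proteins, 9 SF3 subunits and 5 U2AF proteins, and 5 of the 82 are pseudogenes in the current reference annotation. All 200 features had 3 probes, and a gene had between 1 and 8 features.

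The RNA came from TE-1, an established human oesophageal squamous carcinoma line grown in DMEM with 10% serum. The control cells were transfected with the empty plasmid PCDNA3.1 and the other cells with PCDNA3.1-Pax2, the same plasmid carrying PAX2, a paired-box transcription factor. Total RNA was taken 24 h after transfection, and each group was measured on 1 single-colour Cy3 array. Both groups share the cell line, the plasmid backbone and the transfection itself. The labels do not give the share of cells that took up a plasmid. Neither group has a replicate, so there is no test and no p-value, and every difference below describes these 2 arrays. In RNA of a whole culture, a difference carried by some of the cells and a smaller one in all of them cannot be told apart.

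Splicing removes introns from precursor mRNA in a large RNA and protein machine, the spliceosome, which is built anew on each intron from the U1, U2, U4, U5 and U6 small nuclear ribonucleoproteins (snRNPs). U1 marks the start of the intron, the U2AF heterodimer reads the pyrimidine tract and the AG at its end, and U2 with its SF3a and SF3b complexes then settles on the branch point. SR proteins and hnRNP proteins bind the transcript around the sites and help or hinder their use, which makes them the main regulators of alternative splicing. These genes are active in nearly every cell type. An expression array of this kind measures the amount of transcript and not how any transcript was spliced.

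As a check of the labels, the single PAX2 feature read 22.2 (control) and 22.1 (array labelled PAX2) on the linear intensity scale, close to the 20.6 and 19.3 of the 5000 random-sequence probes. The second array is therefore called PAX2-labelled throughout. Where the PAX2 probes lie is not stated in the labels or headers, so it is not known whether they fall in the part of the gene carried by the plasmid. Of 9 epithelial and squamous markers 4 were above the median feature (KRT5, KRT14, KRT8 and KRT18), while KRT6A, KRT19, TP63, CDH1 and EPCAM were below it on both arrays. None of 4 leukocyte and none of 3 endothelial markers passed. Of 4 fibroblast markers 2 passed (COL1A1 and DCN), and of 4 neuronal markers 1 (SYP).

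Most splicing genes were well measured and differed little. A gene counts as measured if the mean log2 intensity of its features reached the median feature (7.68 for the control, 7.71 for the PAX2-labelled array) on at least 1 array, and 79 of the 82 members did, 1 of them through the control array alone. On the log2 intensity scale the 79 control values ranged from 7.99 to 14.05, with a median of 11.98, and the 79 PAX2-labelled values from 7.37 to 14.28, with a median of 12.04. The log2 difference, PAX2-labelled minus control, had a median of 0.03 and ran from -0.85 to 1.07, against a median of 0.02 for all 11628 measured genes. Of the 79 members 44 lay above 0 and 35 below, and 38 or 39 lay above 0 after centring, quantile normalization or loess. The members within 1.2-fold were 60 (75.9%), against 68.0% of all measured genes.

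Because the members are bright, a threshold of 1.5-fold was used beside 2-fold. At least 1.5-fold higher on the PAX2-labelled array were 5 of the 79 measured members, U2AF2, SF3A2, HNRNPUL2, HNRNPA3 and HNRNPL, a share of 6.33% against 4.51% of all measured genes. At least 1.5-fold lower were 2, among them SNRPEP2, a share of 2.53% against 3.22%. Only U2AF2 passed 2-fold (1.27% of the members against 1.13% of all measured genes), and no member was 2-fold lower (1.16% of all measured genes). At each threshold the share of members called is near the share of all measured genes, and against that background it says nothing particular about splicing genes. Dim genes differ more often than bright ones, so the background was also taken over the upper quartile of brightness, which held 63 of the 79 members. There 4 of the 63 members (6.35%) were at least 1.5-fold higher, against 93 of 5320 genes (1.75%), and 1 (1.59%) was at least 1.5-fold lower, against 0.865%. With 4 and 1 genes, these shares are a description of these arrays only.

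**Figure D1:**
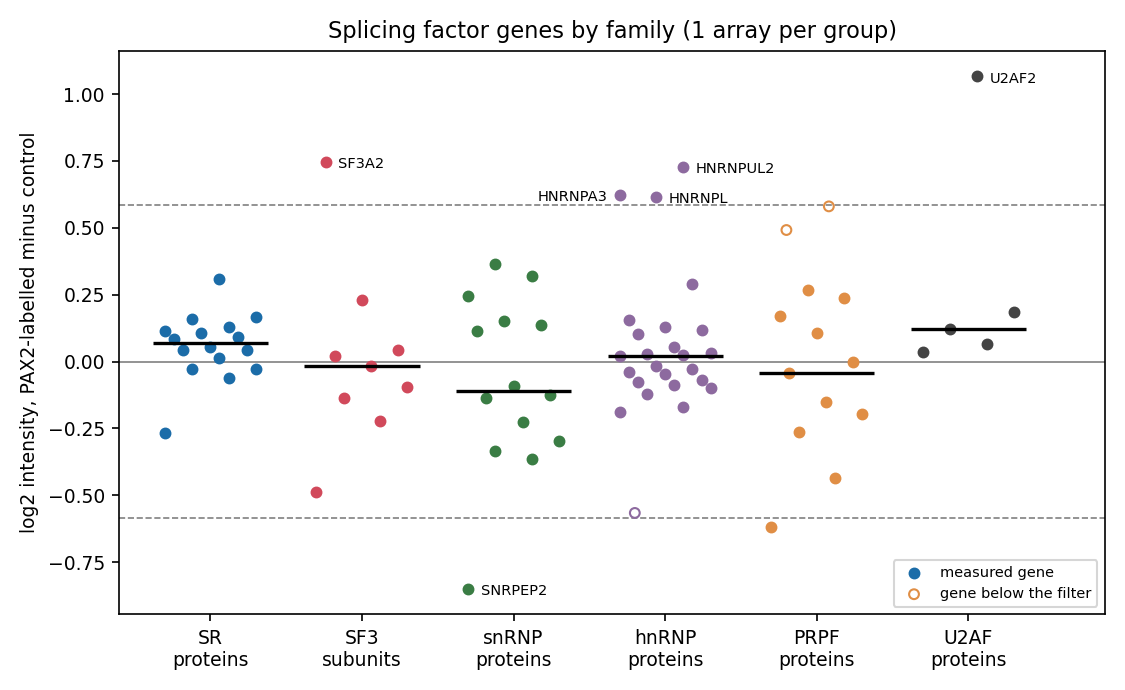
Log2 difference of each of the 82 splicing factor genes (vertical axis, PAX2-labelled minus control array), grouped by family. Filled points are measured genes, open points genes below the filter, black bars family medians, and dashed lines 1.5-fold; the sideways shift within a family only separates the points. The 16 SR proteins all lie within 1.5-fold, while U2AF2 stands alone above 1.

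U2AF2 had the largest increase of all members. It encodes the large subunit of U2AF, which binds the pyrimidine tract in front of the end of an intron. Its feature NM_001012478 went from an intensity of 1826 (control) to 3420 (PAX2-labelled), and its feature NM_007279 from 2421 to 5669. Both features lie on HG18 chromosome 19, 60857227 to 60877894, and both were higher, 1.87-fold and 2.34-fold. The coordinates here and below are the span of the transcript, and the exons that the probes match are not stated in the headers. The mean of the 2 features was 2.09-fold higher, a log2 difference of 1.07. Among the 5320 genes in the upper quartile of brightness 11 (0.207%) were at least 2-fold higher, and U2AF2 is 1 of these 11.

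U2AF1, the small subunit that pairs with U2AF2 and reads the AG at the end of the intron, showed no common direction. Its 3 features, all on chromosome 21, 43386134 to 43400757, carried different RefSeq transcripts of the gene. NM_006758 went from 7676 to 5945 and NM_001025203 from 8915 to 7958, both lower. NM_001025204 went from 4327 to 7161, 1.66-fold higher. The mean difference of U2AF1 was 0.06 on the log2 scale. A near-identical copy of U2AF1 is present in newer genome builds, and the deposited values cannot separate the copies. The related U2AF1L4 (0.04), ZRSR2, which recognises the end of minor introns (0.12), and the pseudogene ZRSR2P1 (0.18) were close to 0. All 5 members of this family lay above 0 in the mean of their features, with a median of 0.12. U2AF1L4 fell just below 0 after quantile normalization and loess (4 of 5 above 0). With the brightest feature alone U2AF1 had -0.16 and U2AF1L4 -0.13. When the median over its features was taken on each array and then subtracted, U2AF1 had -0.10.

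The bases in front of the start of 4 of these genes are printed here, since they are the stretch a transcription factor such as PAX2 could meet: U2AF2, with the largest increase, its partner U2AF1 without one, and SF3A2 and HNRNPA3, the other members at least 1.5-fold higher with more than 1 feature, all above 0. Each is 250 bases long, read 5′ to 3′ on the strand of the gene and ending at the base before the annotated start, from RefSeq on GRCh38.p14. They are chr19:55654785-55655034 (plus strand), chr21:43107571-43107820 (minus strand), chr19:2236574-2236823 (plus strand) and chr2:177212544-177212793 (plus strand). Capitals mark matches, on either strand, to CCGGAAG, the core recognised by ETS factors. The core GTCACGC of PAX paired-domain sites was searched in the same way and has no match in these 4 windows.
U2AF2: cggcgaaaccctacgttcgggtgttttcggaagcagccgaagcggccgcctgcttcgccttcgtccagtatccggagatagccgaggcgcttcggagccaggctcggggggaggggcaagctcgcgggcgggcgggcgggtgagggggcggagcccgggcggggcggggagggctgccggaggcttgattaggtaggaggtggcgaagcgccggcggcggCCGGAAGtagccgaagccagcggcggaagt
U2AF1: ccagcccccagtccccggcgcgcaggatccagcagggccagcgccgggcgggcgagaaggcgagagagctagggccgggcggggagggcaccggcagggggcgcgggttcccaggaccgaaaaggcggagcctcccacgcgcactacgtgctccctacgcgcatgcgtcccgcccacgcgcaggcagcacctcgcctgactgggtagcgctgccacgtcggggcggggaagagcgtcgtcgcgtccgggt
SF3A2: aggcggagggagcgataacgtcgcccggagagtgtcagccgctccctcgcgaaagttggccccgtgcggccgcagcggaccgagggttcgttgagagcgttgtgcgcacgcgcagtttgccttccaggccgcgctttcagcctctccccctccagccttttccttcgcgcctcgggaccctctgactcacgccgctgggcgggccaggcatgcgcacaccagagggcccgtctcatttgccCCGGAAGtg
HNRNPA3: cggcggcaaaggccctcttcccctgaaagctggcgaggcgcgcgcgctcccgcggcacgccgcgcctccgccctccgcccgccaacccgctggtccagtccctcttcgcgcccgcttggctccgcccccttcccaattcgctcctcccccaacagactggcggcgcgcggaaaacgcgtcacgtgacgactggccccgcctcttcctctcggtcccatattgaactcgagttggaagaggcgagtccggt

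These 4 windows are rich in G and C (72.4%, 75.6%, 68.4% and 70.4% in the printed order). U2AF2 and SF3A2 each hold 1 match to the ETS core, starting 30 and 9 bases before the annotated start, and U2AF1 and HNRNPA3 hold none. Upstream windows were available for 66 of the 79 measured members. The ETS core was found for 24 of these 66 genes (36.4%), against 1625 of 8155 measured genes with a window (19.9%). Counted by window it was in 28 of 91 member windows (30.8%), against 8.52% of all 35116 windows. The 24 genes with the match had a median difference of 0.04 and the 42 without it 0.03. The paired-domain core was found for 3 of the 66 (4.55%), against 4.40% of measured genes, and in 3.30% of member windows, against 2.20% of all windows. These 3 were HNRNPF (difference 0.15), SCAF11 (0.09) and SF3B5 (-0.22), none of them at least 1.5-fold higher. The end of the ETS core and the start of the paired-domain core share a G, so that matches can overlap. Of the 91 member windows 1 held both, with no overlap between the matches, and of all 35116 windows 86 held both and 4 of these had overlapping matches. A match is a description of the letters and not a binding site.

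Among the SF3 subunits, which hold U2 on the branch point, SF3A2 was the only member past 1.5-fold. SF3A2 is a subunit of SF3a. Its feature BC009903 went from 5364 to 8012 and its feature NM_007165 from 5988 to 11287 (HG18 chromosome 19, 2187815 to 2199678). Both features were higher, 1.49-fold and 1.88-fold, and the mean was 1.68-fold higher (0.75 on the log2 scale). Its partners in SF3a did not share this, with SF3A1 at 0.02 and SF3A3 at -0.14.

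The 6 SF3b genes had a median of -0.06 and ran from -0.49 to 0.23. SF3B1, the large scaffold that is often mutated in leukaemias, had a difference of -0.10, with -0.27 and 0.08 in its 2 features. SF3B6, which touches the branch point adenosine, was the lowest member of the family, with intensities of 1742 and 1241 in its 1 feature (1.40-fold lower). SF3B2 had 0.23, SF3B3 0.04, SF3B4 -0.02 and SF3B5 -0.22. Over the 9 members of both complexes 1 was at least 1.5-fold higher (11.1%, against 4.51% of all measured genes), 0 were lower (against 3.22%) and 8 passed neither threshold. The median of the 9 was -0.02.

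The snRNP proteins were the family with the lowest median, -0.11, with 6 of 14 members above 0 and 8 below. The 7 genes of the Sm ring, the heptamer that encloses the snRNA, did not move as a unit: SNRPF (-0.36), SNRPD1 (-0.34), SNRPD3 (-0.30) and SNRPD2 (-0.13) were lower, and SNRPB (0.14), SNRPG (0.25) and SNRPE (0.32) were higher. All 5 features of SNRPG were above 0 (0.13 to 0.42), as were both of SNRPE (0.20 and 0.44). Both features of SNRPD1 were below 0 (-0.43 and -0.24), as were both of SNRPD3 (-0.55 and -0.04). The SNRPB mean rests on its dimmest feature (146 to 250), while its brighter features lay between -0.21 and 0.08. None of these 7 genes reached 1.5-fold.

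The lowest value of all members belonged to SNRPEP2, a pseudogene of SNRPE listed on the array as SNRPEL1. Its 1 feature (chromosome 9, 6738555 to 6739008) went from 2793 on the control array to 1551 on the PAX2-labelled array, 1.80-fold lower, while SNRPE itself lay above 0. A pseudogene and its parent are near-identical, so which transcript the feature measured is uncertain. SNRPN, the Sm protein of an imprinted locus and close to SNRPB in sequence, had a difference of -0.09 over 4 features.

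The proteins specific to U1 did not share a direction. SNRNP70 and SNRPA, which bind the stem-loops of U1 RNA, had mean differences of 0.37 and 0.15, and SNRPC, which contacts the start of the intron, had -0.22. The SNRNP70 mean rests on 1 dim feature. Its 3 bright features went from 16692 to 12684, from 12290 to 11591 and from 13432 to 18150, so that 2 were lower and 1 higher. The fourth, NM_001009820, went from 41.4 to 118 and lay on both arrays within the range of silent features, so no fold is given for it. That range is the 95th percentile of 401 olfactory receptor features, which is 135 for the control and 141 for the PAX2-labelled array. Without features inside that range the SNRNP70 difference was -0.02. SNRPA1 and SNRPB2, the pair specific to U2, had 0.11 and -0.14. The SNRPA1 mean rests on its dimmest feature (307 to 426), while its brighter features had -0.08 and -0.05.

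The hnRNP proteins coat newly made transcripts, and 24 of their 25 genes were measured, with a median difference of 0.02, 13 above 0 and 11 below; after centring, quantile normalization or loess 9, 11 or 10 of the 24 lay above 0. At least 1.5-fold higher were 3 (12.5%, against 4.51% of all measured genes), and none was 1.5-fold lower (against 3.22%). Of these 3 calls HNRNPL ended after centring (0.58 on the log2 scale) and HNRNPA3 after quantile normalization (0.57) and loess (0.58), where 1.5-fold is 0.585. HNRNPA3, a relative of the splicing repressor HNRNPA1, had features that went from 21130 to 32161 and from 7842 to 12248 (chromosome 2, 177785745 to 177792300). The 2 features agreed closely, at 1.52-fold and 1.56-fold higher. Its processed copy HNRNPA3P1 had a difference of 0.13, and signal of the gene and its copies may be shared.

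HNRNPL, which binds CA repeats in introns and exons, had 1 feature (chromosome 19, 44018867 to 44034819) that went from 6970 to 10677, 1.53-fold higher and just under the threshold after centring. HNRNPUL2, a relative of the nuclear scaffold protein HNRNPU, went from 255 to 422 in its 1 feature (chromosome 11, 62236678 to 62251529), 1.66-fold higher. With a single feature each, HNRNPL and HNRNPUL2 have no second reading. HNRNPLL, a paralogue of HNRNPL that shapes CD45 splicing in lymphocytes, had -0.28, -0.19 and -0.17 in 3 features, and its remaining feature was inside the range of silent features.

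Several hnRNP genes with well-studied roles in splicing, chosen here after their values were seen, had smaller differences than these 3. HNRNPA1 had a mean difference of 0.02 over 8 features, which ran from -0.22 to 0.55. HNRNPA2B1 had -0.08, HNRNPC -0.04 over 8 features (-0.26 to 0.25), HNRNPK 0.02, HNRNPD 0.03, HNRNPM 0.03 and HNRNPU 0.06. HNRNPR (-0.17) and HNRNPH1 (0.29) were somewhat further out. The lowest measured member was HNRNPA1P7, a pseudogene of HNRNPA1, at -0.19. Signal of HNRNPA1 and its pseudogenes HNRNPA1P7 and HNRNPA1P4 (-0.02), and of HNRNPC and its copy HNRNPCL1 (-0.05), may be shared. RBMXL2, the germ-cell hnRNP G-T, was inside the range of silent features in both of its features on both arrays.

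The SR proteins, activators of exon inclusion named for their serine and arginine repeats, varied least among the families. None of the 16 genes reached 1.5-fold in either direction, against 4.51% higher and 3.22% lower of all measured genes, so a count of 0 among 16 is near the background. Of the 16 genes 12 lay above 0 (11 after centring, quantile normalization or loess), and the median was 0.07. The SD over the 16 differences was 0.12, against 0.28 over all 79 measured members. SRSF1, the founding member, had a difference of 0.04 over 3 features (-0.05 to 0.19). SRSF2 had -0.06 over 5 features, SRSF3 0.01, SRSF4 0.13, SRSF5 -0.03, SRSF6 0.09 and SRSF7 0.16. SRSF9 was the lowest, with features going from 10989 to 8410 and from 10712 to 9647, a mean difference of -0.27.

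The remaining genes of the SR naming family are SR-related rather than classical SR proteins. TRA2B, an activator that binds GAA-rich exons, had 0.04, SREK1 -0.03, SRSF11 0.17, SCAF11 0.09, SUGP2 0.11, CLASRP 0.11 and SFSWAP 0.05. SCAF4, which binds the tail of RNA polymerase II, was the highest of the family at 0.31. Its 2 features went from 829 to 1026 and from 1368 to 1692, with the same difference of 0.31 in each.

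The PRPF proteins carry the names of yeast precursor-RNA processing factors, and many belong to the U4, U5 and U6 tri-snRNP. PRPF8, the large protein at the catalytic centre, went from 11006 to 12533 and from 10029 to 12238 in its 2 features, a mean difference of 0.24. PRPF6 and PRPF31, which bridge the snRNPs, had 0.17 and 0.11, with all 3 features of PRPF31 above 0. PRPF3 (-0.002) and PRPF4 (-0.04), partners on the U4 and U6 pair, stayed near 0. PRPF19, a ubiquitin ligase that joins during activation, had -0.20, and the kinase gene PRP4K, listed on the array as PRPF4B, had -0.15.

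PRPF40B was lower in both features, from 369 to 267 and from 428 to 323, a mean difference of -0.44. PRPF38A, which joins for the activation step, had differences of -0.55 and 0.02 in its 2 features (mean -0.26). Its relative PRPF38B had 0.03, 0.03, 0.28 and 0.72 in its 4 features, with a mean of 0.27. When the median log2 intensity over the features was taken on each array and then subtracted, the difference was 0.03. PRPF18 and PRPF39 were below the filter on both arrays, and both features of PRPF39 and 1 of the 2 of PRPF18 were within the silent range, so no fold is given for them. Of the 11 measured members 4 lay above 0 and 7 below, with a median of -0.04.

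Features of the same gene share the hybridisation, so their agreement does not show the spread between cultures. They can stand for different transcripts, so measurement error and differences between transcripts cannot be told apart in their spread. The pooled SD of a single feature around its gene was 0.30 on the log2 scale for the measured members with several features and 0.33 over all measured genes. Of 58 measured members with several features 14 had all of them above 0, 11 all below 0 and 33 on both sides. The 25 with 1 sign are 43.1%, against 47.8% of all measured genes with several features. Among the 58, only U2AF2 and HNRNPA3 had every feature at least 1.5-fold higher (3.45%, against 0.868%). None of the 58 had every feature 1.5-fold lower (0.259% of all measured genes with several features).

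Single features past 1.5-fold seldom had a second one past that threshold, but their partners often shared their sign. Among the 200 member features, 14 (7%) passed 1.5-fold upwards and 3 (1.5%) downwards, against 12.8% and 11.6% of all features. All features include many dim ones, while the members are bright, so these shares are not matched for brightness. Of these 17, 14 had a partner feature of the same gene, and for 4 of the 14 a partner passed 1.5-fold in the same direction. For 9 of the 14 all partners had the same sign. In HNRNPF, whose protein binds G-tracts, BC001432 went from 11161 to 21474, 1.92-fold higher, while NM_004966 went from 23317 to 17334 and BC004254 from 16510 to 15908. In HNRNPUL1, NM_144733 went from 16177 to 26611 while the other 4 features lay between -0.17 and 0.07. In SNRPB, BC003530 went from 146 to 250 while the 3 brighter features lay between -0.21 and 0.08. In each of these 3 genes, picked from those with features on both sides of 0, 1 feature stood apart from the rest.

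**Figure D2:**
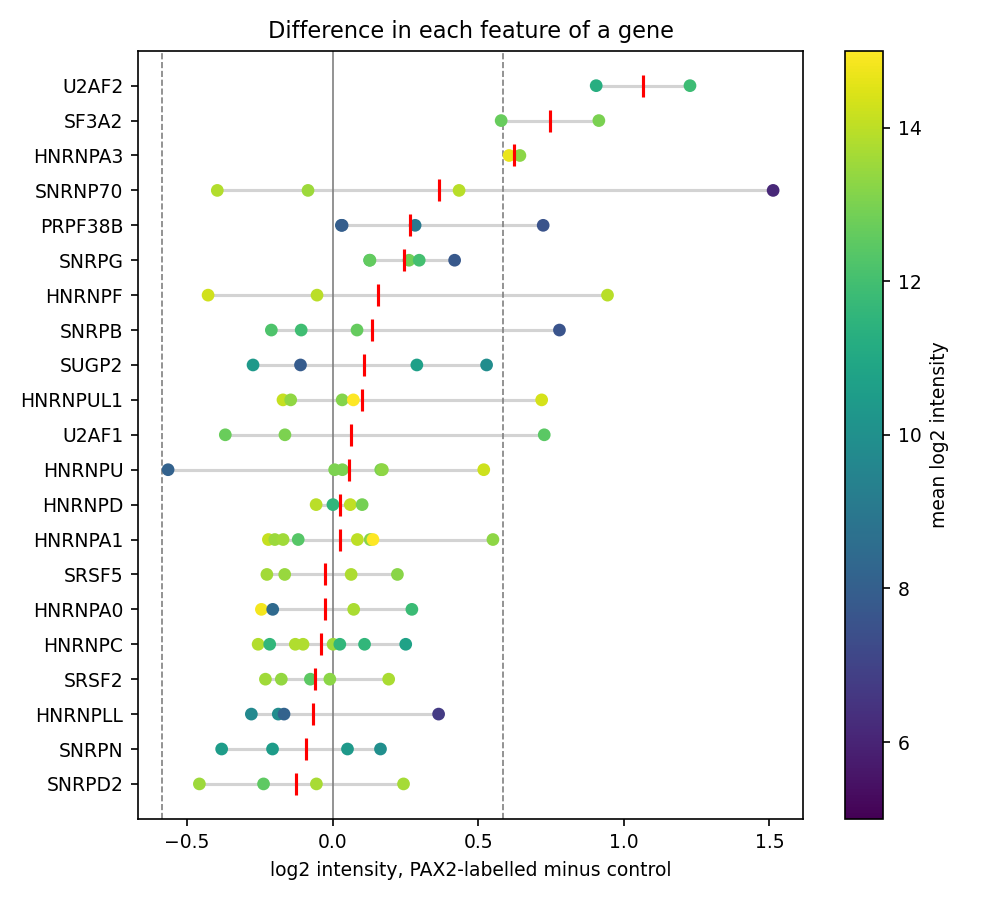
Log2 difference (PAX2-labelled minus control) in each feature of the member genes with at least 4 features and of U2AF1, U2AF2, SF3A2, HNRNPA3 and HNRNPF. Points are features coloured by mean log2 intensity, red ticks gene means and dashed lines 1.5-fold. The features of U2AF2, SF3A2 and HNRNPA3 lie together to the right, while those of SNRNP70, HNRNPF, U2AF1 and HNRNPU spread over both sides of 0.

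The members were bright. Of the 79 measured members 79.7% were in the upper quartile of brightness, against 45.8% of all measured genes. Within that quartile 50 of 63 members (79.4%) differed by less than 1.2-fold, against 76.8% of all genes there. The SD of the difference was 0.28 for the 63 bright members and 0.25 for the 5320 bright genes. In all, 8 of the 200 features were within the silent range on both arrays and 2 on 1 array.

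**Figure D3:**
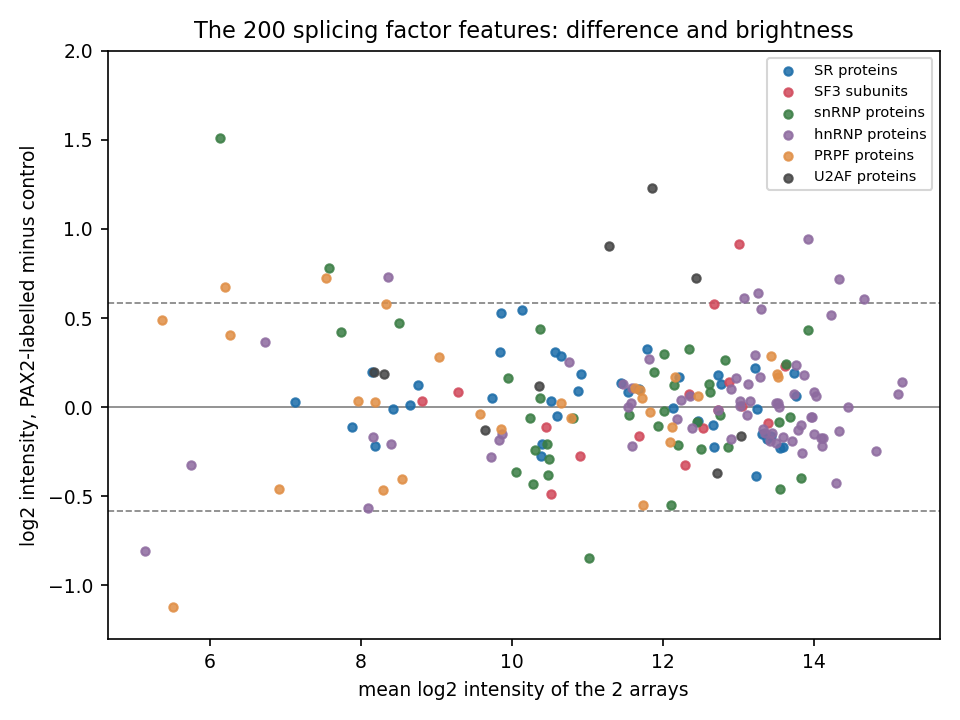
Log2 difference (vertical axis, PAX2-labelled minus control) of the 200 member features against their mean log2 intensity (horizontal axis), coloured by family, with dashed lines at 1.5-fold. The 8 features within the silent range on both arrays lie at the left, and the 2 U2AF2 features lie well to the right of them.

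Of the 5 members at least 1.5-fold higher, 3 lie on chromosome 19 (U2AF2, SF3A2 and HNRNPL). Of the 12 measured members on that chromosome 11 were above 0, with a median of 0.11, against 33 of 67 on the other chromosomes, with a median of -0.002. The 12 include these 3 genes, so the comparison is not independent of them. SNRNP70, counted among the 11, had -0.02 without features in the silent range. Over all measured genes the median was 0.07 for the 724 on chromosome 19, of which 61.9% were above 0, and 0.02 for the 10904 elsewhere, of which 52.9% were. After quantile normalization 10 of the 12 and 29 of the 67 lay above 0. The GC content of the upstream window had a Pearson correlation of 0.23 with the difference across the 66 members that have a window and of 0.06 across 8155 measured genes. Genes share the 2 arrays and are not independent replicates. The part of base composition or position in the higher members was not tested.

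Other genes of the splicing pathway were taken from 10 lists written from textbook knowledge, leaving out the 5 listed genes that are members already. Of the 128 others 115 were measured, and none was at least 1.5-fold higher or lower, against 4.51% and 3.22% of all measured genes. Many of them are bright, and in the upper quartile of brightness the shares were only 1.75% and 0.865%. Their median difference was 0.004, with 61 above 0. The largest difference was that of KHSRP, a relative of the far-upstream-element binding proteins that acts in splicing and decay, in the list of 22 measured alternative splicing regulators (median 0.04). Its features went from 12670 to 16300 and from 5771 to 9973, a mean of 1.49-fold higher. PTBP1, the pyrimidine-tract repressor, had a difference of 0.23, with its 4 features running from -0.39 to 0.69. ESRP2, an epithelial regulator, had -0.11.

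The list of 14 U1 and U2 partners had a median of 0.02. SF1, which reads the branch point beside U2AF, had a mean difference of 0.36, but 1 of its 4 features (34.1 to 60.7) was inside the silent range. Without that feature SF1 had 0.21 (-0.08, 0.31 and 0.39), below RBM17, a factor that contacts SF3B1, at 0.27. The 3 features of RBM17 ran from -0.14 to 0.85. In the same list PUF60, a U2AF2-like protein, had -0.02 and PHF5A, a subunit of SF3b, 0.01. Among 9 SR-related proteins and SR kinases (median 0.02) the scaffold SRRM2 and TRA2A, a paralogue of TRA2B, both had 0.48. SRRM2 had 1 of its 3 features inside the silent range and 0.46 without it, while the 2 features of TRA2A differed widely (-0.13 and 1.08). The SR kinase SRPK1 had 0.02.

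The other lists had medians on both sides of 0. The 14 Prp19 complex genes had a median of -0.11, with 3 above 0 and RBM22 lowest at -0.24, and the 7 minor spliceosome genes a median of 0.18, with 6 above 0 and ZMAT5 highest at 0.48. The 12 partners in U5 and the tri-snRNP had a median of -0.05, with ZMAT2 at -0.40, and the 11 genes of the SMN complex, which loads the Sm ring, -0.08, with GEMIN7 at -0.42. The 9 helicases and step factors had a median of 0.01, with CACTIN at 0.44, and the 8 exon junction genes 0.04, with MAGOH at 0.35. The 9 LSm and U6 genes had a median of -0.02. SART3, which recycles U6, had a mean difference of 0.35, and it rests on a feature that went from 23.4 to 120, inside the silent range, while its other 3 features lay between -0.46 and -0.21 (mean -0.31).

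**Figure D4:**
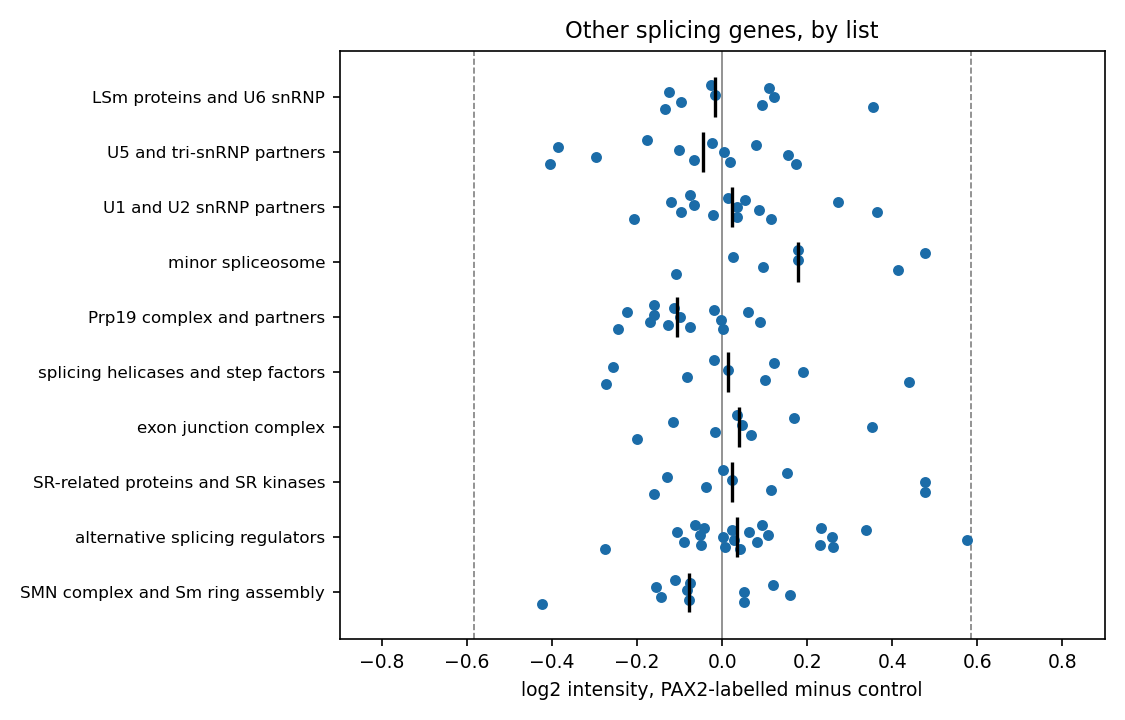
Log2 difference (horizontal axis, PAX2-labelled minus control) of the 115 other measured splicing genes in 10 lists. Points are genes, shifted vertically within a list to separate them, black bars list medians and dashed lines 1.5-fold. All points lie between the dashed lines, with KHSRP nearest to the upper one.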

How the data were processed

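Total RNA of TE-1 cells was measured on 2 arrays, 1 per group. Per the submitters' processing notes the authors used RMA to summarise the probes; its version, background correction and between-array step were not given in the labels or headers. The authors deposited 1 linear intensity per feature and array, with the count of its probes, per the file headers. The deposited series table holds the same values in all 45034 rows. Gene names and coordinates are those of the array design on HG18, per the file headers.

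Members were found by the name in the file, and names were then updated through the gene ID to current symbols (RefSeq, GRCh38.p14), which matched for all 82 member genes. Features of 1 gene were averaged as log2 intensities with no pseudocount and no further normalization, and the difference is PAX2-labelled minus control. Genes were kept if they reached the median feature on at least 1 array. Genes past 1.5-fold and 2-fold were counted; no test is possible with 1 array per group, and this number of arrays limits the precision. Members, lists, thresholds and alternatives were chosen with earlier results of these data known. Named are the measured members past 1.5-fold except 1 that is not reported here, the highest and lowest other member of each family, both U2AF genes and, per list, the members past 1.5-fold or else the one with the largest difference; other genes were named after their values were seen or to complete a complex. The silent range, taken from olfactory receptor features, and the promoter search were added after seeing the data. Alternatives changed the scaling, feature summary, filter, offset (64), loess fraction (0.3) and membership. The counting was tested on simulated data. Python 3.11.15 with pandas 2.3.3 and statsmodels 0.14.6 was used.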

Additional observations from a re-analysis of the deposited data

How the results depend on the processing

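No paired analysis was possible because the control and the PAX2 vector have a single array each. The count of 5 members at least 1.5-fold higher was 4 after centring, quantile normalization, loess and with the 75th percentile filter. It was 2 when every feature of a gene had to pass, a rule run only on the 58 measured members with several features. Genes with 1 feature, such as HNRNPL, HNRNPUL2 and SNRPEP2, were left out of that rule and did not fail it. The count of 2 lower was 1 with the brightest feature or an offset of 64. It was also 1 with a filter on the mean of the arrays and with the 75th percentile filter. In settings added after seeing the data it was 1 without features in the silent range or with protein-coding members only. Among the 58 members with several features it was 0 when every feature had to pass. The counts past 2-fold were 1 higher and 0 lower in all 13 settings run for them; U2AF2 ranged from 1.03 to 1.23 and SF3A2 from 0.71 to 0.91 over the 8 settings run for single genes. HNRNPL fell below 1.5-fold after centring (0.58), and HNRNPA3 after quantile normalization (0.57) and loess (0.58). SNRNP70 ranged from -0.08 to 0.43, and U2AF1 from -0.16 to 0.06. The -0.08 is the median over features on the PAX2-labelled array minus that on the control array, not the median of the feature differences. Of 98 recomputed medians and means 97 moved by less than the single-feature SD over the square root of the family size. That margin allows a change of sign for medians close to 0, and the series table, with the same values, could not move them. The exception was the U2AF median of 0.12, which became a mean of 0.29. The medians of the SF3, hnRNP, PRPF and all members changed sign around 0 under some settings, and those of the SR, snRNP and U2AF families did not. The cause was not tested, except that a stricter rule tests fewer genes. Low signal over background limits the 3 members below the filter.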
